A study of Mus musculus with 24 samples.

Results

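The genes described here are 31 genes of monocytes and macrophages, taken as the rows of the deposited count table whose gene symbol is 1 of the 31 names. All 31 were present among the 55487 gene identifiers of the table. They were measured by bulk RNA-seq in 24 mouse libraries of Lin-Sca1+KIT+ cells, a sort gate that takes blood stem cells with multipotent progenitors and should leave out mature monocytes and macrophages. The libraries form 6 groups of 4. At each of 3 ages, cells that carry MLL::ENL as a Tet-On transgene (ME) were set beside control cells. MLL::ENL is a leukaemia fusion of the Kmt2a and Mllt1 proteins. It was induced in culture, after sorting, and all groups spent 48 h in culture, so neither group was measured as it came from the animal. E16 cells (embryonic day 16) came from liver, and P14 (postnatal day 14) and 8wk (8 weeks) cells from bone marrow, so at E16 age and tissue cannot be told apart. The labels name no strain, no promoter driving the transgene, no genotype of the controls beyond "control" and no animal for any library. By Xist and Ddx3y, transcripts of female and male cells, every group held libraries of both sexes, so no group came from a single animal. Which libraries share an animal is not known. The p-values therefore measure the spread between these libraries, which may in part be technical.

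Monocytes arise in liver or marrow from progenitors that pass through a granulocyte and monocyte stage, and depend on CSF1 acting on its receptor CSF1R. They leave for blood by way of CCR2. Tissue macrophages clear dying cells, immune complexes and iron through scavenger, Fc and phosphatidylserine receptors. Many macrophages of fetal liver and adult tissues are seeded before birth, and this lineage uses genes such as Timd4, Cd5l and Vsig4. PU.1 is the lineage's central transcription factor, and its binding sites lie close to the start of many of these genes.

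The promoter windows of 4 members are shown because these genes stand for 4 patterns in the counts: a monocyte gene that followed the libraries (F13a1), a complement gene (C1qb), a scavenger receptor with counts in few libraries (Marco) and a gene counted almost only at E16 (Cd5l). Each window is the 250 bases before the RefSeq gene start, GRCm38.p6, written in the direction of the gene. The capitals mark GAGGAAG, a PU.1-type motif, or its reverse complement.
F13a1 (chr13:37050245-37050494, minus strand): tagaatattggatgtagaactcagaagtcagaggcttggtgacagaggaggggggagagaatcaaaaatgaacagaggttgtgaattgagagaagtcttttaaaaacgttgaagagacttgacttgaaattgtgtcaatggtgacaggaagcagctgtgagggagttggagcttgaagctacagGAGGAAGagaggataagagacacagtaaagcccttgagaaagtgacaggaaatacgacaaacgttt
C1qb (chr4:136886201-136886450, minus strand): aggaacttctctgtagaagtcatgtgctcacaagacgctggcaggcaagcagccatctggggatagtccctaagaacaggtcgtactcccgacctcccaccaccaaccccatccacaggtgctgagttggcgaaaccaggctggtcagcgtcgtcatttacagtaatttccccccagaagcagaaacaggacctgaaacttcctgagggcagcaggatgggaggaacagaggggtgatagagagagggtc
Marco (chr1:120505025-120505274, minus strand): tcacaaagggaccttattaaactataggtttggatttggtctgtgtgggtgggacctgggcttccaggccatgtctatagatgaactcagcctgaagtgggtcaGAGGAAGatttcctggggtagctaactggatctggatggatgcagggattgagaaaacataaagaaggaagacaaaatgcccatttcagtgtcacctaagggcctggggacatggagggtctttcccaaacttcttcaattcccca
Cd5l (chr3:87357631-87357880, plus strand): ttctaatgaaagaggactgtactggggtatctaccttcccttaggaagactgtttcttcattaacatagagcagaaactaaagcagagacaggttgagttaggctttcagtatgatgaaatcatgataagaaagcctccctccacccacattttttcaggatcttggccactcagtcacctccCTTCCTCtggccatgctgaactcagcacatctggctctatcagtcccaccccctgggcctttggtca
The motif lay 66 bases before the start in F13a1, 146 in Marco and 67 in Cd5l, and was not in the C1qb window. RefSeq windows were at hand for 22 of the 31 members. GAGGAAG, on either strand, was in 10 of these 22 (45.5%) and in 10.6% of all 32817 promoter windows of that length. Some RefSeq starts used lay far from the gene start of the GENCODE annotation. The distance was 5532 bases for Fcgr3, which held a match, 6109 for Lgals3, 1992 for Spic and 1583 for Cx3cr1. The other motifs searched were a MAF half-site, TGCTGAC (2 of 22, 9.09%, against 3.81%), a C/EBP-type motif, TTGCNNAA (2 of 22, 9.09%, against 9.57%), and the interferon-stimulated response element, ISRE (1 of 22, 4.55%, against 2.97%). A match describes letters in a window and is not a binding site.

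Library totals ran from 33.9 to 69.3 M counts (median 47.1 M). Skida1, a known target of MLL fusions, checks the ME label: it was higher in ME at each age (log2 fold changes 4.39 ± 0.31, 4.29 ± 0.31 and 2.30 ± 0.30 SE at E16, P14 and 8wk). Mllt1 and Kmt2a, the genes joined in the fusion, were also called higher at each age. The 8 progenitor markers summed to between 2369 and 3943 CPM in every library. CPM is the count of a gene per M counts of its library, after TMM scaling of the totals. Kit reached 375 to 1763 CPM and Ly6a 61.9 to 827. Of the other cell types, Cd3e of T cells stayed at or below 0.0802 CPM and Alb of hepatocytes at or below 0.438. Other genes of the same marker lists were counted in every library. Afp of the hepatocyte list ran from 5.26 to 26.8 CPM, and Lck and Nkg7 of the T and NK list from 28.5 to 79.1 and from 53.5 to 333.

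The 31 genes together made up a small and very uneven part of the counts. Their summed level in replicates 1 to 4 was 826, 907, 886 and 224 CPM in E16 ME and 1021, 680, 674 and 665 in E16 controls. At P14 the sums were 226, 207, 87.1 and 95.9 in ME and 125, 145, 64.6 and 59.9 in controls. At 8wk they were 926, 818, 737 and 192 in ME and 620, 116, 87.1 and 109 in controls. Thus 3 libraries stood apart from their groups: E16 ME replicate 4 and 8wk ME replicate 4 were low, and 8wk control replicate 1 was high. E16 ME replicate 4 was the lowest of its group for 27 of the 30 members tested, and 8wk ME replicate 4 for 24. 8wk control replicate 1 was the highest of its group for 27 of 30. These libraries also lay away from their groups on the first principal component of all tested genes outside the gene lists (27.9% of the variance), where E16 ME replicates 1 to 4 were at -81.6, -87.6, -71.7 and -31.6, 8wk ME at -65.9, -56.6, -43.4 and 7.7, and 8wk controls at 15.2, 68.1, 78.3 and 70.2. Sex also set 8wk control 1 apart: Xist was 0.139 CPM there and 34.6, 39.6 and 46.3 in controls 2 to 4. In 8wk ME replicates 1 to 4 Xist was 0, 41.9, 1.34 and 36.7. How far sex shaped the 8wk comparison was not tested.

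Between the libraries of a group, neutrophil genes moved with the 31 genes. Between ME and control they had the other sign at E16 and P14. The median log2 fold change of 10 neutrophil markers was -1.80, -1.48 and 1.47 at E16, P14 and 8wk. For the 30 members tested it was 0.26, 0.83 and 1.60. The 10 neutrophil markers (Mpo, Elane, S100a8 and others) summed to 3279, 4145, 5556 and 938 CPM in E16 ME and 9632, 5275, 3768 and 4426 in E16 controls. At P14 their sums were 1990, 1552, 509 and 216 in ME and 1250, 1406, 908 and 389 in controls, and at 8wk 6254, 5878, 5270 and 1381 and 4405, 630, 415 and 871. E16 ME 4 and 8wk ME 4 were again the lowest and 8wk control 1 the highest of their groups, and E16 control 1 was also high in its group. Of the 10, 0 or 1 were under 1 CPM throughout a group, except 3 in P14 ME. Sums of 10 dendritic cell markers ran from 216 to 609 CPM in E16 ME, 419 to 598 in E16 controls, 69.3 to 132 in P14 ME, 71.5 to 95.3 in P14 controls, 133 to 463 in 8wk ME and 55.9 to 215 in 8wk controls. The part of these other myeloid cells in the results below was not tested. Fewer cells of a type and less RNA per cell cannot be told apart in bulk libraries. Each count of members below is therefore given with all 24 libraries and without the 3, a setting chosen after the data were seen.

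**Figure D1:**
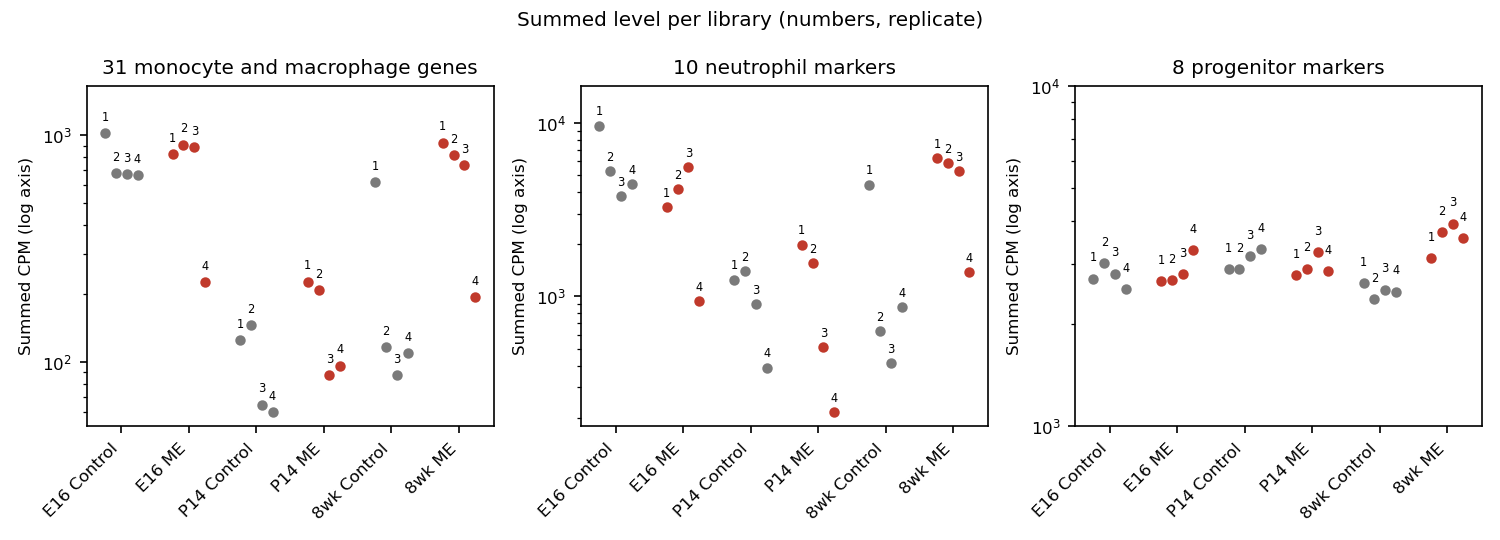
Summed CPM on a log axis in each of the 24 libraries, for the 31 genes, 10 neutrophil markers and 8 progenitor markers; numbers give the replicate and red marks ME. E16 ME 4 and 8wk ME 4 lie below and 8wk control 1 above their groups in the first and second panels, while the progenitor sums stay between 2369 and 3943.

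**Figure D2:**
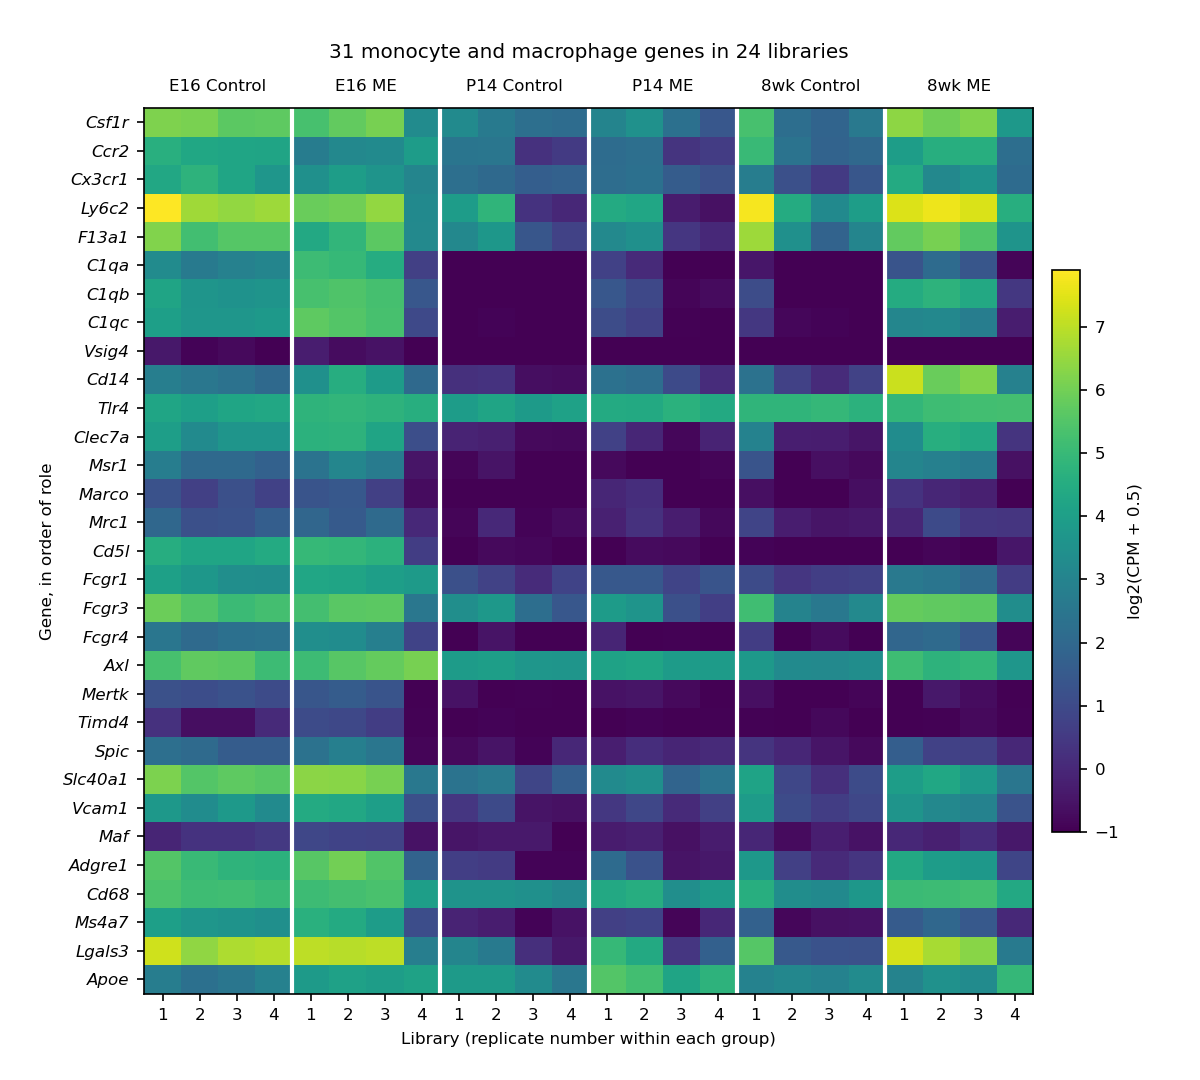
Level of each of the 31 genes, as log2(CPM + 0.5), in every library, with genes in order of role and libraries grouped by age and genotype. Most genes are bright at E16 (except in ME replicate 4), dark at P14 and bright again in 8wk ME replicates 1 to 3, while Tlr4, Axl, Cd68 and Apoe stay visible in all 24 columns.

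In control cells, most of the 31 genes were far lower at P14 than at E16. Of the 30 members that passed the filter on low counts (Vsig4 did not), 26 fell and 0 rose at an adjusted p under 0.05, with a median log2 fold change of -3.96. Over all 18931 genes tested, 7.51% fell and 7.61% rose, and the median was 0.01. In 28 of the 30, all 4 P14 controls lay below all 4 E16 controls, against 12.6% of all genes. The 4 that were not called were Tlr4, Apoe, Ly6c2 and F13a1. A member that passed the filter only through the group where it was high had to differ, so the count describes these genes and supports nothing further. Without the 3 libraries, 27 fell (background 9.59%) and 1, Apoe, rose (9.59%).

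The 8wk controls gave a similar order with more spread. Of the 30 members, 17 fell from E16 to 8wk (background 10.8%) and 1, Tlr4, rose (12.5%). Cd5l, Mertk and Timd4, among the 17, passed the filter through E16, where they are high, so their calls describe these genes and support nothing further. Without the 3 libraries, 27 fell (13.2%) and Tlr4 alone rose (15.2%), and without 8wk control replicate 1 alone 26 fell. Between P14 and 8wk controls, Tlr4 and Vcam1 were higher at 8wk (2 of 30, background 7.01%) and 0 were lower (5.58%). The edgeR test gave 10 members an unadjusted p under 0.05 in that comparison, DESeq2 called 6 and limma-voom 1. Leaving the 3 libraries out, 1 was higher (Tlr4, 11.1%) and 3 were lower (Axl, Cx3cr1 and Slc40a1, 7.63%). These comparisons share control groups. The split of all calls between P14 and 8wk controls was 55.7% higher with TMM and 43.2% with library size only.

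Between ME and control, the members called were few at E16 and more at the later ages. At E16, 2 of 30 rose in ME (Apoe and Tlr4, background 13.3%) and 0 fell (8.47%). At P14, 6 rose (Apoe, C1qb, C1qc, Cd14, Marco and Tlr4, background 12.7%) and 0 fell (9.35%). At 8wk, 10 rose (Axl, C1qa, C1qb, C1qc, Cd14, Cd68, Csf1r, Cx3cr1, Fcgr1 and Msr1, background 14.2%) and 0 fell (14.3%). The median log2 fold change of the 30 was 0.26, 0.83 and 1.60 at the 3 ages, beside 0.02, 0.03 and -0.02 over all genes. The share of members called higher was below the background at E16 and above it at P14 and 8wk. At P14, C1qb, C1qc and Marco passed the filter only through other groups, so their calls describe these genes and support nothing further. With only the P14 libraries fitted, 3 of 21 members rose, beside 12.7% of all genes in the full fit. Counting higher and lower calls alike, the share of members called at P14 was not above that of all genes, and at 8wk it was little above it. At 8wk, 5 rose when only the 8wk libraries were fitted. The unadjusted p was under 0.05 for 2, 8 and 15 members, and each of these was higher in ME. DESeq2 called 2, 7 and 12 members higher and limma-voom 2, 2 and 7, with 0 lower by either. All 4 ME libraries lay above all 4 controls at E16 for Apoe and Tlr4 (2 of 30, background 14.4%) and at P14 for Apoe, Tlr4 and C1qb (3 of 30, 14.1%). They lay below at E16 for Ccr2 and Ly6c2 (2 of 30, 12.8%), neither of which was called, and at P14 for 0 (12.5%).

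Leaving out the 3 libraries changed the 8wk comparison most. They were chosen for their levels of these genes, the 8wk ME library being low and the 8wk control high. Their removal had to widen the 8wk difference and narrow its spread. Values without them, here and below, are therefore a description. Without them, 3 members rose at E16 (Cd14 was added, background 11.5%), 8 at P14 (C1qa and Cd68 were added, 14.3%) and 23 at 8wk (17.7%), with 0 lower at any age (7.54%, 11.4% and 17.2%). The 7 tested members not called at 8wk were then Ly6c2, Tlr4, Cd5l, Mertk, Timd4, Maf and Apoe. Leaving out 8wk control replicate 1 alone gave 20 at 8wk. Neutrophil markers followed: 0 of 10 were called at 8wk with all libraries and 9 of 10 were higher without the 3. With TMM, 61.1% of all calls at E16 and 57.5% at P14 were higher, against 74.6% and 70.5% with library size only.

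**Figure D3:**
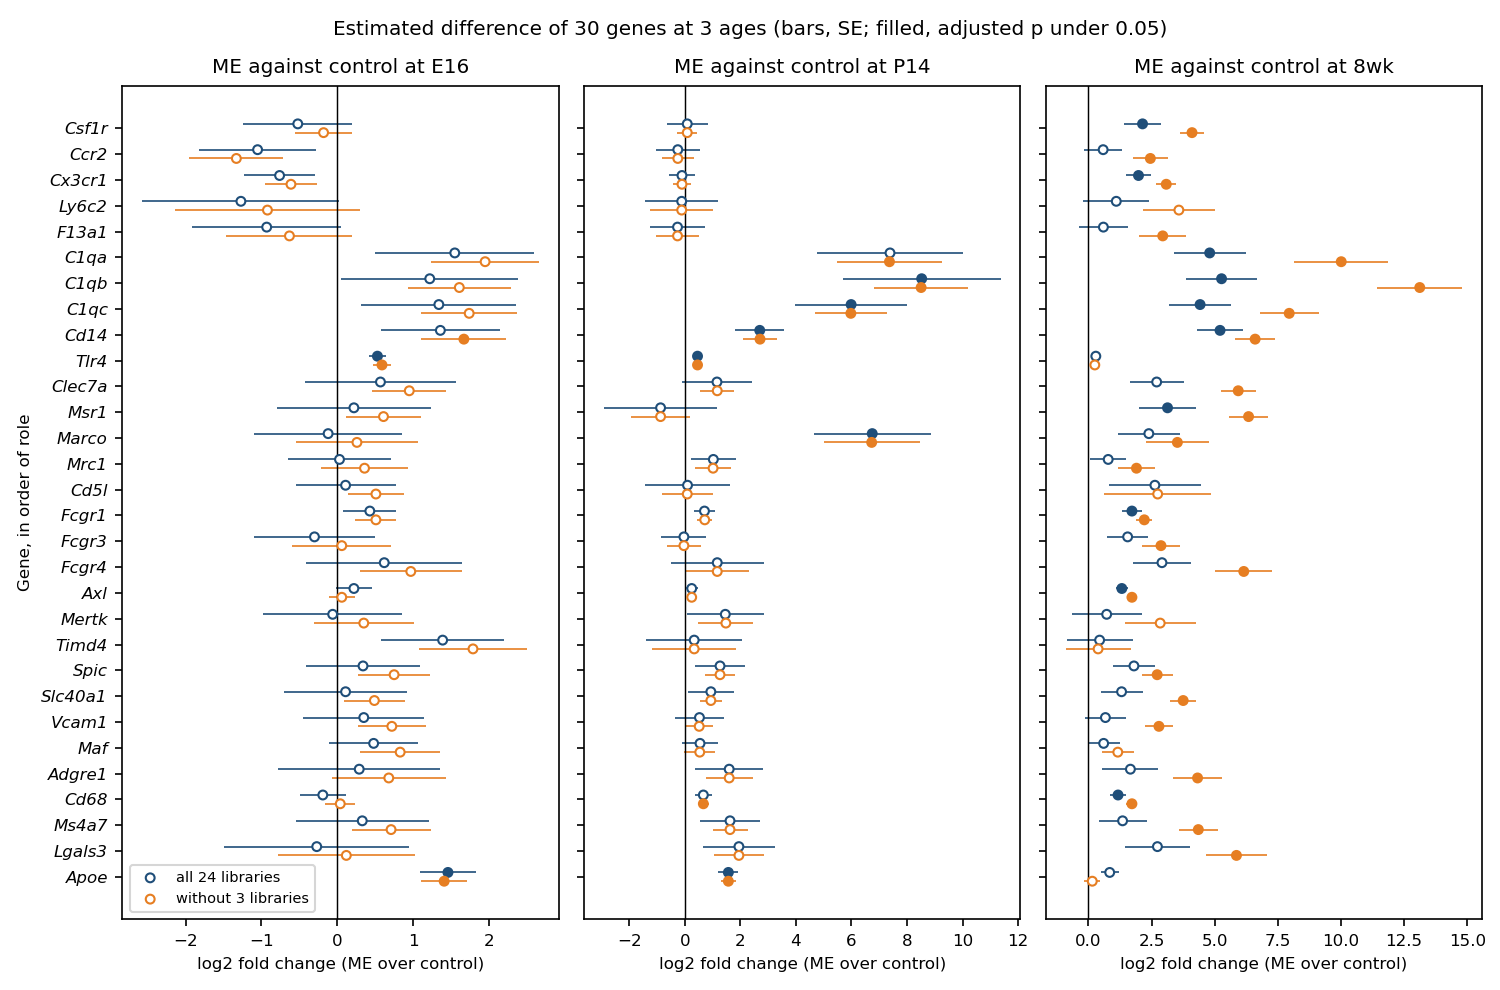
Log2 fold change of ME over control (x axis, bars are SE) for the 30 members tested at E16, P14 and 8wk, with all 24 libraries (blue) and without the 3 libraries that stand apart (orange); filled points have an adjusted p under 0.05. Filled orange points number 3, 8 and 23; estimates for C1qa, C1qb and Marco against controls at 0 counts depend on the prior count and are no bounds.

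Levels of single members follow by role. Each series of 4 values is the CPM of replicates 1 to 4, log2 fold changes are ME minus control unless stated, and their error is the SE of the edgeR fit. Csf1r, the CSF1 and IL34 receptor, was at 39.3, 53.6, 66.9 and 9.43 in E16 ME and 71.6, 68.3, 50.7 and 51.5 in E16 controls. Csf1r at P14 was 7.53, 10.8, 4.43 and 2.16 in ME and 9.21, 5.89, 4.32 and 3.98 in controls, and at 8wk 83.3, 61.9, 73.9 and 13.1 and 39.5, 4.17, 3.14 and 5.51. The 8wk control 1 value sat above the 8wk ME 4 value, so the groups overlapped. Csf1r fell in controls from E16 to P14 (log2 fold change -3.37 ± 0.79 SE, adjusted p = 0.00551) and rose in ME at 8wk (log2 fold change 2.14 ± 0.75 SE, adjusted p = 0.037). That rise was lost when any of 6 single 8wk libraries was left out (adjusted p = 0.0673 to 0.115) and was 4.10 ± 0.46, adjusted p = 3.47e-06 without the 3 libraries. Its fall in controls from E16 to 8wk was likewise lost without any 1 of 7 libraries (0.055 to 0.112).

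Cx3cr1, the fractalkine receptor of monocytes, stood at 10.7, 15.2, 11.8 and 7.75 in E16 ME and 19.9, 26.3, 18.4 and 12.4 in E16 controls. Cx3cr1 at P14 was 4, 4.34, 2.52 and 1.8 in ME and 4.27, 3.66, 2.68 and 2.94 in controls. Cx3cr1 at 8wk was 21.1, 8.34, 11.2 and 3.82 in ME and 6.35, 1.78, 0.925 and 2.1 in controls, where only control 1 reached into the ME range. It rose in ME at 8wk (log2 fold change 1.98 ± 0.49 SE, adjusted p = 0.00531; adjusted p = 0.0713 when only the 8wk libraries were fitted), while the E16 estimate had the other sign (log2 fold change -0.76 ± 0.47 SE, adjusted p = 0.274). Ccr2, the receptor by which monocytes leave the marrow, was 6.13, 8.38, 9.13 and 14.6 in E16 ME, below every E16 control (24.1, 19.2, 18.3 and 17.8), yet its difference did not pass the test (log2 fold change -1.05 ± 0.77 SE, adjusted p = 0.356). Ccr2 at P14 was 3.92, 4.26, 0.774 and 0.99 in ME and 5.07, 5.17, 0.692 and 0.911 in controls, and at 8wk 15.1, 23.4, 23.7 and 4.18 and 32.7, 4.74, 3.05 and 3.56. Among the E16 ME libraries, Ccr2 was highest in replicate 4, the library in which 27 members were lowest of their group.

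Ly6c2, a surface marker of classical monocytes, and F13a1, the factor XIII A subunit made by monocytes, varied widely between libraries of a group. Ly6c2 was 58, 62.4, 87.4 and 8.8 in E16 ME and 240, 98.1, 87.4 and 97.6 in E16 controls. Ly6c2 at P14 was 21.4, 18.9, 0.298 and 0.161 in ME and 14.8, 27.9, 0.722 and 0.506 in controls, and at 8wk 174, 207, 169 and 23.6 and 221, 22, 8.95 and 15. F13a1 ranged over 8.62 to 73.9 CPM at E16, 0.529 to 12.8 at P14 and 3.09 to 95.8 at 8wk. Neither gene was called in any of the 9 planned comparisons. F13a1 without the 3 libraries rose in ME at 8wk (log2 fold change 2.94 ± 0.94 SE, adjusted p = 0.0222) and Ly6c2 did not pass (log2 fold change 3.58 ± 1.42 SE, adjusted p = 0.062). Ly6c2 has a near-identical neighbour, Ly6c1, so its counts are uncertain.

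C1qa, C1qb and C1qc encode the chains of complement C1q, which macrophages secrete. The genes lie side by side on chromosome 4 (C1qb: ENSMUSG00000036905, chromosome 4, 136880129-136886187, minus strand). C1qb was 39.7, 43.5, 38 and 2.19 in E16 ME and 18, 12.1, 11.2 and 11.8 in E16 controls, so that 3 ME libraries were above and 1 below all controls. C1qb at P14 was 2.2, 1.41, 0.0397 and 0.0921 in ME and at 0 counts in all 4 controls, and at 8wk 21.6, 26.8, 20.3 and 0.877 in ME and 1.62, 0, 0 and 0 in controls. The pooled P14 ME level was at least 74.6-fold higher than the controls, whose level was set to 3 counts for the group as a whole. At 8wk C1qb rose (log2 fold change 5.27 ± 1.42 SE, adjusted p = 0.0109), and without the 3 libraries the ME level was at least 1076-fold higher, since controls 2 to 4 held 0 counts.

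C1qa was 33.9, 30.6, 22.6 and 1.1 in E16 ME and 9.4, 5.87, 6.97 and 7.87 in E16 controls. C1qa at P14 was 1.14, 0.539, 0 and 0 in ME against 0 counts in the controls, at least 34-fold higher. C1qa at 8wk was 1.98, 3.84, 2.11 and 0.0418 in ME and 0.223, 0, 0 and 0 in controls (log2 fold change 4.80 ± 1.43 SE, adjusted p = 0.0192). C1qc was 51, 45.3, 38.9 and 1.46 in E16 ME and 16, 12.2, 12.3 and 13.3 in E16 controls. C1qc at P14 was 1.58, 1.16, 0.0199 and 0 in ME and 0, 0.0299, 0 and 0 in controls, a pooled ratio of 81.8 (95% counting interval 22.2 to 683). C1qc at 8wk was 8.09, 8.36, 6.38 and 0.313 in ME and 0.865, 0.0524, 0.0349 and 0 in controls (log2 fold change 4.42 ± 1.24 SE, adjusted p = 0.0115). For all C1q genes the P14 counts came almost wholly from ME replicates 1 and 2 (57 and 21 counts of C1qa, 110 and 55 of C1qb, 79 and 45 of C1qc), and the P14 calls of C1qb and C1qc were lost without either of them. The P14 calls were also lost without any 1 of the 4 controls (adjusted p = 0.0671 to 0.0984). limma-voom called none of the C1q genes at P14 or 8wk. When only the 8wk libraries were fitted, C1qb and C1qc missed the threshold there (adjusted p = 0.0625 and 0.0533), and the 8wk call of C1qa was also lost without ME replicate 2 or control replicate 2, 3 or 4 (adjusted p = 0.0526 to 0.0621). Intervals and floors cover counting error only.

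The C1q chains stood in another ratio at 8wk than at E16, a description chosen after the values were seen and given with no test. C1qa counts were 0.854, 0.704, 0.594 and 0.5 of C1qb counts in E16 ME and 0.521, 0.486, 0.625 and 0.668 in E16 controls. In 8wk ME the ratio was 0.0918, 0.143, 0.104 and 0.0476, and in 8wk control 1, the control of that age with counts enough, it was 0.138. P14 ME replicates 1 and 2 gave 0.518 and 0.382. The C1qc to C1qb ratio was 0.663 to 1.28 over the 8 E16 libraries, 0.718 and 0.818 in P14 ME 1 and 2, and 0.312 to 0.374 in 8wk ME. In 8wk control 1 it was 0.534, between the 8wk ME and the E16 values. The low libraries E16 ME 4 and 8wk ME 4 were the lowest of their groups for C1qa to C1qb, on 98 and 42 C1qb counts, and each lay nearer the other libraries of its own age than those of the other. Between 8wk ME and E16 ME, C1qa fell (log2 fold change -3.47 ± 1.13 SE, adjusted p = 0.0479), while the C1qb estimate was -0.83 ± 1.16, adjusted p = 0.715. Vsig4, a complement receptor of tissue macrophages, had 30 counts in all E16 ME libraries together, 19 in E16 controls and 0 in the 16 marrow libraries. It was too low to be tested.

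**Figure D4:**
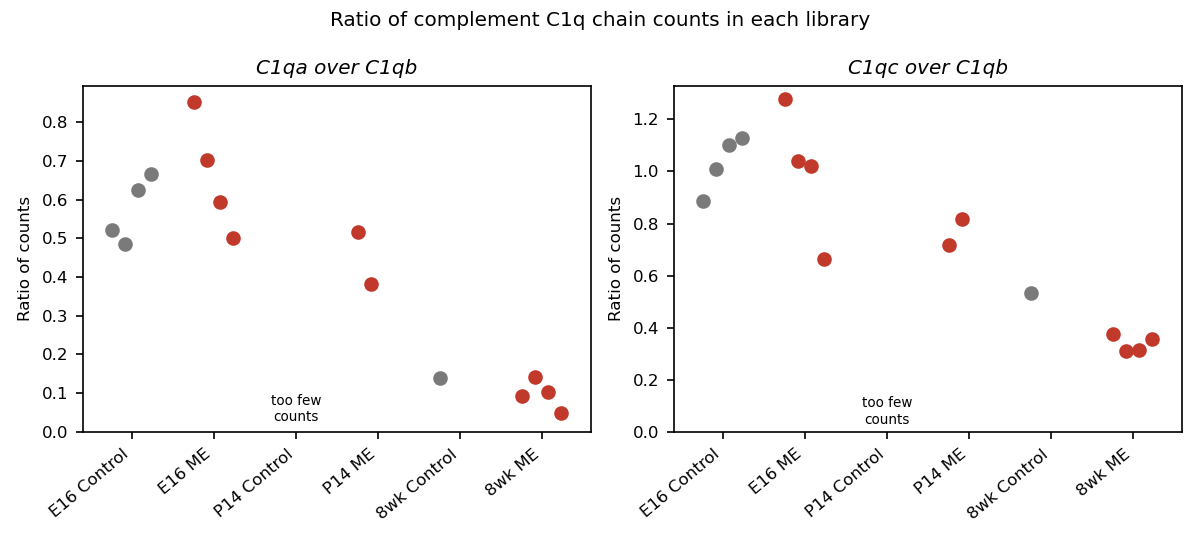
Ratio of C1qa to C1qb counts (left) and of C1qc to C1qb counts (right) in each library with at least 20 C1qb counts; red marks ME. All 8 E16 libraries lie at 0.486 or above on the left, and all 5 libraries shown for 8wk at 0.143 or below.

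Cd14 and Tlr4 work together in sensing bacterial lipopolysaccharide. Cd14 was 10.7, 22.7, 14.5 and 3.65 in E16 ME and 6.45, 5.29, 4.64 and 3.66 in E16 controls. Cd14 at P14 was 4.52, 4.06, 1.51 and 0.598 in ME and 0.666, 0.733, 0.135 and 0.118 in controls, where ME 4 lay below controls 1 and 2. Cd14 at 8wk was 145, 58.5, 73.9 and 6.98 in ME and 4.69, 1.15, 0.558 and 1.18 in controls. It was the only 1 of the 30 in which all 4 ME libraries of that age lay above all 4 controls (background 12%), and in 0 did they lie below (9.05%). It rose at 8wk (log2 fold change 5.21 ± 0.91 SE, adjusted p = 0.000352) and at P14 (log2 fold change 2.70 ± 0.89 SE, adjusted p = 0.034), and at E16 the estimate was 1.36 ± 0.78, adjusted p = 0.229. The 8wk call held in every alternative, while the P14 call was lost with limma-voom (adjusted p = 0.279), without a filter (0.0919) and without ME replicate 1 or 2 (0.0927 and 0.0847) or control replicate 3 or 4 (0.101 and 0.106).

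Tlr4 (ENSMUSG00000039005, chromosome 4, 66827584-66930284, plus strand) was well counted in every library. It was 27, 28.8, 26.6 and 23.3 in E16 ME and 18.5, 16, 18.5 and 20 in E16 controls, with no overlap. Tlr4 at P14 was 21.1, 20.6, 25.1 and 21 in ME and 14.8, 18, 14 and 16.8 in controls, again with no overlap, and at 8wk 29.5, 34.6, 36.3 and 37.1 and 28, 28.1, 30.3 and 26.1. The lowest and highest of 24 libraries were 14 and 37.1 CPM, and the 3 libraries that stood apart for other members did not stand apart here. It rose in ME at E16 (log2 fold change 0.53 ± 0.11 SE, adjusted p = 0.00178) and P14 (log2 fold change 0.46 ± 0.11 SE, adjusted p = 0.00491), did not pass at 8wk (log2 fold change 0.29 ± 0.11 SE, adjusted p = 0.0581), and rose in controls from P14 to 8wk (log2 fold change 0.82 ± 0.11 SE, adjusted p = 0.000156). The E16 and P14 calls held in every alternative.

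Clec7a, the beta-glucan receptor Dectin-1, was 25.7, 26.7, 18 and 1.68 in E16 ME and 15.6, 9.04, 12.1 and 11.9 in E16 controls. Clec7a at 8wk was 9.6, 23.4, 20.4 and 0.773 in ME and 7.28, 0.341, 0.314 and 0.215 in controls (log2 fold change 2.70 ± 1.07 SE, adjusted p = 0.0641; 5.93 ± 0.69, adjusted p = 4.56e-06 without the 3 libraries), and 0.0596 to 1.14 over the P14 libraries. Msr1, a class A scavenger receptor, was 4.79, 8.08, 6.1 and 0.202 in E16 ME, 6.38, 3.63, 3.59 and 2.89 in E16 controls, 7.73, 6.92, 5.92 and 0.167 in 8wk ME and 1.99, 0, 0.14 and 0.0858 in 8wk controls. Its P14 values were at most 0.194 CPM. Msr1 rose in ME at 8wk (log2 fold change 3.13 ± 1.13 SE, adjusted p = 0.0427), a call lost with DESeq2 (adjusted p = 0.0589) and without any of 6 single 8wk libraries (0.0739 to 0.126). In E16 ME replicate 4 and 8wk ME replicate 4 it was nearly absent.

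Marco, another scavenger receptor, was 1.98, 2.21, 1.13 and 0.112 in E16 ME and 1.88, 1.11, 1.74 and 1.16 in E16 controls. Marco at P14 had 48 counts in ME, all in replicates 1 and 2 (0.48 and 0.616 CPM), and 0 in controls, so that ME was at least 20.9-fold higher. Marco at 8wk was 0.721, 0.474, 0.355 and 0 in ME and 0.139, 0, 0 and 0.129 in controls (log2 fold change 2.39 ± 1.24 SE, adjusted p = 0.162). Its P14 call was lost with limma-voom (adjusted p = 0.368), without a filter (0.0835), without ME replicate 1 or 2 (0.0653 and 0.0798) and without control replicate 2, 3 or 4 (0.0585 to 0.064). Mrc1, the mannose receptor, ranged over 0.515 to 3.73 CPM in E16 ME and 1.78 to 3.45 in E16 controls, and was at or below 1.52 in every marrow library. Mrc1 was lower in controls at P14 (log2 fold change -3.78 ± 0.79 SE, adjusted p = 0.00212) and 8wk (log2 fold change -2.21 ± 0.72 SE, adjusted p = 0.0303) than at E16. The 8wk call was lost without a filter (0.0896) and without E16 control 1 or 4 or 8wk control 2, 3 or 4 (adjusted p = 0.0539 to 0.0987). Without the 3 libraries Mrc1 was higher in 8wk ME than in 8wk controls (log2 fold change 1.90 ± 0.72 SE, adjusted p = 0.0479).

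Cd5l, a scavenger protein secreted by tissue macrophages (ENSMUSG00000015854, chromosome 3, 87357881-87371073, plus strand), was counted almost only at E16. It was 30.7, 29.4, 26.2 and 1.05 in E16 ME and 22.9, 18.3, 18.2 and 21.5 in E16 controls, and at most 0.23 in any marrow library. In controls it fell to P14 (log2 fold change -8.86 ± 1.04 SE, adjusted p = 4.84e-06). At 8wk the controls held 2 counts against 3528 at E16, a ratio of 2191 (95% counting interval 606 to 18098). The 4 ME libraries of 8wk held 13 counts. In ME too it was lower at 8wk than at E16 (log2 fold change -8.23 ± 1.01 SE, adjusted p = 8.08e-06). Cd5l passed the filter through E16, where it is high, so these calls describe the gene and support nothing further. E16 ME replicate 4, at 1.05, lay far below the other 7 E16 libraries, all at 18.2 or above.

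Fc receptors bind IgG on immune complexes. Fcgr1, the high-affinity receptor, was 19, 17.7, 15.3 and 13.8 in E16 ME and 16.2, 12.5, 10.2 and 9.77 in E16 controls. Fcgr1 at P14 was 2.26, 2.26, 1.29 and 1.98 in ME and 1.78, 1.2, 0.557 and 1.23 in controls, and at 8wk 5.59, 4.95, 3.75 and 1 and 1.55, 0.838, 1.08 and 1.14. Only 8wk ME 4 fell within the 8wk control range, and Fcgr1 rose in ME at that age (log2 fold change 1.72 ± 0.38 SE, adjusted p = 0.00183) in every alternative. E16 ME 4, at 13.8, lay within the E16 control range. Fcgr3 was 37.7, 48.9, 50.5 and 5.35 in E16 ME and 60.3, 44.9, 32.8 and 37.2 in E16 controls. Fcgr3 at P14 was 14.5, 11.6, 1.75 and 1.08 in ME and 10.1, 13.1, 4.14 and 2.19 in controls, and at 8wk 55.4, 52.3, 50.1 and 9.8 and 35.6, 7.36, 5.48 and 8.75. It passed in no ME comparison with all libraries and rose at 8wk without the 3 (log2 fold change 2.87 ± 0.75 SE, adjusted p = 0.00659). Fcgr4 was 10.1, 9.52, 6.68 and 1.23 in E16 ME and 5.16, 3.75, 4.44 and 4.57 in E16 controls, at most 0.44 at P14, and 3.36, 3.74, 2.21 and 0.0418 in 8wk ME against 1.02, 0, 0.105 and 0 in 8wk controls (log2 fold change 2.91 ± 1.16 SE, adjusted p = 0.0674; 6.15 ± 1.13, adjusted p = 0.000373 without the 3 libraries).

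Axl, Mertk and Timd4 take up apoptotic cells, Axl and Mertk as receptor kinases that bind GAS6 (Mertk also PROS1), and Timd4 as a phosphatidylserine receptor. Axl was 33.9, 48.2, 55.9 and 67.8 in E16 ME and 39.5, 53.3, 49.8 and 33.7 in E16 controls. Axl at P14 was 17.1, 18.5, 14.5 and 14.2 in ME and 14.2, 15.6, 12.4 and 11.9 in controls, and at 8wk 35.2, 26.4, 29.3 and 12.2 and 13.7, 9.14, 8.69 and 9.72. The highest value of all was in E16 ME 4, where most members were lowest. Axl fell in controls from E16 to P14 (log2 fold change -1.70 ± 0.25 SE, adjusted p = 4.55e-05) and to 8wk (log2 fold change -2.09 ± 0.25 SE, adjusted p = 2.65e-06), and rose in ME at 8wk (log2 fold change 1.32 ± 0.25 SE, adjusted p = 0.00052) in every alternative. Mertk was 2.1, 2.49, 2.01 and 0 in E16 ME and 1.8, 1.66, 1.85 and 1.57 in E16 controls, and at most 0.237 in the 16 marrow libraries. Timd4 was 1.57, 1.42, 1.02 and 0.0224 in E16 ME and 0.715, 0.123, 0.131 and 0.55 in E16 controls, and at most 0.079 in marrow. Mertk and Timd4 passed the filter through E16, where they are high, so their falls in controls describe these genes and support nothing further. Both fell in controls from E16 to P14 and to 8wk (Mertk -4.98 ± 1.21, adjusted p = 0.00453 to 8wk; Timd4 -3.93 ± 1.07, adjusted p = 0.00952), and neither was called between ME and control at any age.

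Spic, Slc40a1 and Vcam1 mark macrophages that recycle red cells: Spic encodes their transcription factor, Slc40a1 the iron exporter ferroportin, and Vcam1 an adhesion molecule. Slc40a1 was 81.1, 80, 66.5 and 5.4 in E16 ME and 71.2, 45.8, 51.2 and 47.6 in E16 controls. Slc40a1 at P14 was 9.17, 10.4, 3.16 and 4.76 in ME and 4.81, 5.5, 1.31 and 2.68 in controls, and at 8wk 15.1, 19.1, 13.4 and 5.16 and 17.4, 1.34, 0.663 and 1.57. The 8wk control 1 value lay within the ME range, and the 8wk difference did not pass (log2 fold change 1.31 ± 0.83 SE, adjusted p = 0.257), but was 3.75 ± 0.51, adjusted p = 1.96e-05 without the 3 libraries. Erythroid cells also express ferroportin. The 7 erythroid markers summed to 256 to 621 CPM in E16 ME, 364 to 631 in E16 controls, 150 to 256 in P14 ME, 135 to 223 in P14 controls, 50.9 to 94.1 in 8wk ME and 72.3 to 133 in 8wk controls, and 4 of the 7 were called higher in ME at 8wk without the 3 libraries. Their part in Slc40a1 was not tested.

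Vcam1 was 21.1, 19.6, 15.3 and 1.77 in E16 ME and 12.9, 9.56, 13.6 and 9.19 in E16 controls. Vcam1 at P14 was 0.861, 1.34, 0.536 and 1.13 in ME and 0.816, 1.49, 0.196 and 0.152 in controls, and at 8wk 11.6, 8.34, 7.25 and 1.94 and 14.2, 1.55, 1.05 and 1.35. The call of higher Vcam1 in 8wk than P14 controls (log2 fold change 2.78 ± 0.88 SE, adjusted p = 0.0436) rested on 8wk control 1, at 14.2, and was 0.97 ± 0.51, adjusted p = 0.199 without the 3 libraries. Spic was 4.66, 6.64, 5.13 and 0.0448 in E16 ME, 4.22, 3.69, 2.55 and 2.53 in E16 controls, 2.66, 1.16, 1.11 and 0.501 in 8wk ME and 0.753, 0.472, 0.209 and 0.0858 in 8wk controls, and 0.0301 to 0.616 at P14. It fell in controls to P14 (log2 fold change -4.00 ± 0.89 SE, adjusted p = 0.00368) and to 8wk (log2 fold change -3.06 ± 0.84 SE, adjusted p = 0.0113). Maf, the other transcription factor of the set, was 1.36, 1.22, 1.19 and 0.179 in E16 ME and 0.453, 0.738, 0.741 and 0.908 in E16 controls, and at or below 0.592 in marrow. It was called only as lower in P14 than in E16 controls (log2 fold change -1.88 ± 0.64 SE, adjusted p = 0.0482), a call that most alternatives lost.

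Adgre1, the macrophage surface receptor, was 47.9, 64.7, 44.7 and 3.11 in E16 ME and 45.6, 32.6, 27 and 25.9 in E16 controls. Adgre1 at P14 was 3.88, 1.87, 0.199 and 0.253 in ME and 1.07, 0.957, 0.0301 and 0.0337 in controls, and at 8wk 20.3, 14.7, 13 and 1.3 and 13, 1.1, 0.541 and 0.794. It did not pass between ME and control with all libraries (8wk 1.66 ± 1.11, adjusted p = 0.284) and was 4.32 ± 0.97, adjusted p = 0.00227 at 8wk without the 3. Cd68, a lysosomal glycoprotein of phagocytes, was 34.1, 37.2, 40 and 15.4 in E16 ME and 40.9, 34.7, 36 and 32.7 in E16 controls. Cd68 at P14 was 20.4, 22.7, 10.2 and 13.9 in ME and 11.4, 11.3, 10.7 and 8.76 in controls, and at 8wk 33, 33.6, 36.7 and 20.2 and 23.7, 9.88, 8.81 and 12.5. It stayed above 8 CPM in all 24 libraries, fell in controls from E16 to P14 (log2 fold change -1.77 ± 0.31 SE, adjusted p = 0.000333) and rose in ME at 8wk (log2 fold change 1.17 ± 0.30 SE, adjusted p = 0.00666) in every alternative. Ms4a7, a membrane protein of macrophages, was 24.8, 21.3, 14.8 and 1.63 in E16 ME and 15.7, 12.4, 11.4 and 10.3 in E16 controls, 0.0301 to 1.23 at P14, and 2.48, 3.46, 2.29 and 0.522 in 8wk ME against 2.87, 0.0524, 0.157 and 0.172 in 8wk controls. It was lower in 8wk ME than in E16 ME (log2 fold change -2.84 ± 0.96 SE, adjusted p = 0.0498).

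Lgals3, a galectin made by many myeloid cells, was 129, 123, 130 and 6.58 in E16 ME and 152, 85.5, 113 and 119 in E16 controls. Lgals3 at P14 was 30.9, 20.8, 0.834 and 2.83 in ME and 7.71, 5.8, 0.662 and 0.253 in controls, and at 8wk 161, 106, 79.1 and 5.87 and 46.6, 2.28, 1.88 and 1.8. In each age group 1 or more ME libraries fell among the controls, and with all libraries the 8wk difference did not pass (log2 fold change 2.73 ± 1.30 SE, adjusted p = 0.127). It was 5.86 ± 1.22, adjusted p = 0.00133 without the 3. Apoe, the lipid carrier (ENSMUSG00000002985, chromosome 7, 19696109-19699188, minus strand), followed another order. It was 14, 16.6, 15.2 and 17.2 in E16 ME, above every E16 control (6.36, 4.43, 5.14 and 7.04), and 46, 36.5, 17.8 and 26.6 in P14 ME, above every P14 control (14.1, 14, 9.41 and 5.35). Apoe at 8wk was 7.39, 10.8, 9.36 and 30 in ME and 7.24, 8.23, 7.31 and 9.29 in controls, and its highest 8wk value was in ME 4, where 24 of 30 members were lowest. Apoe rose in ME at E16 (log2 fold change 1.46 ± 0.37 SE, adjusted p = 0.00652) and at P14 (log2 fold change 1.57 ± 0.36 SE, adjusted p = 0.00349) in every alternative, and not at 8wk (log2 fold change 0.84 ± 0.36 SE, adjusted p = 0.0843; 0.15 ± 0.32, adjusted p = 0.764 without the 3 libraries). Apoe is also made by hepatocytes. Of their markers, Alb was at or below 0.438 CPM in every library and Afp ran from 5.26 to 26.8. The part of hepatocytes in Apoe was not tested.

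**Figure D5:**
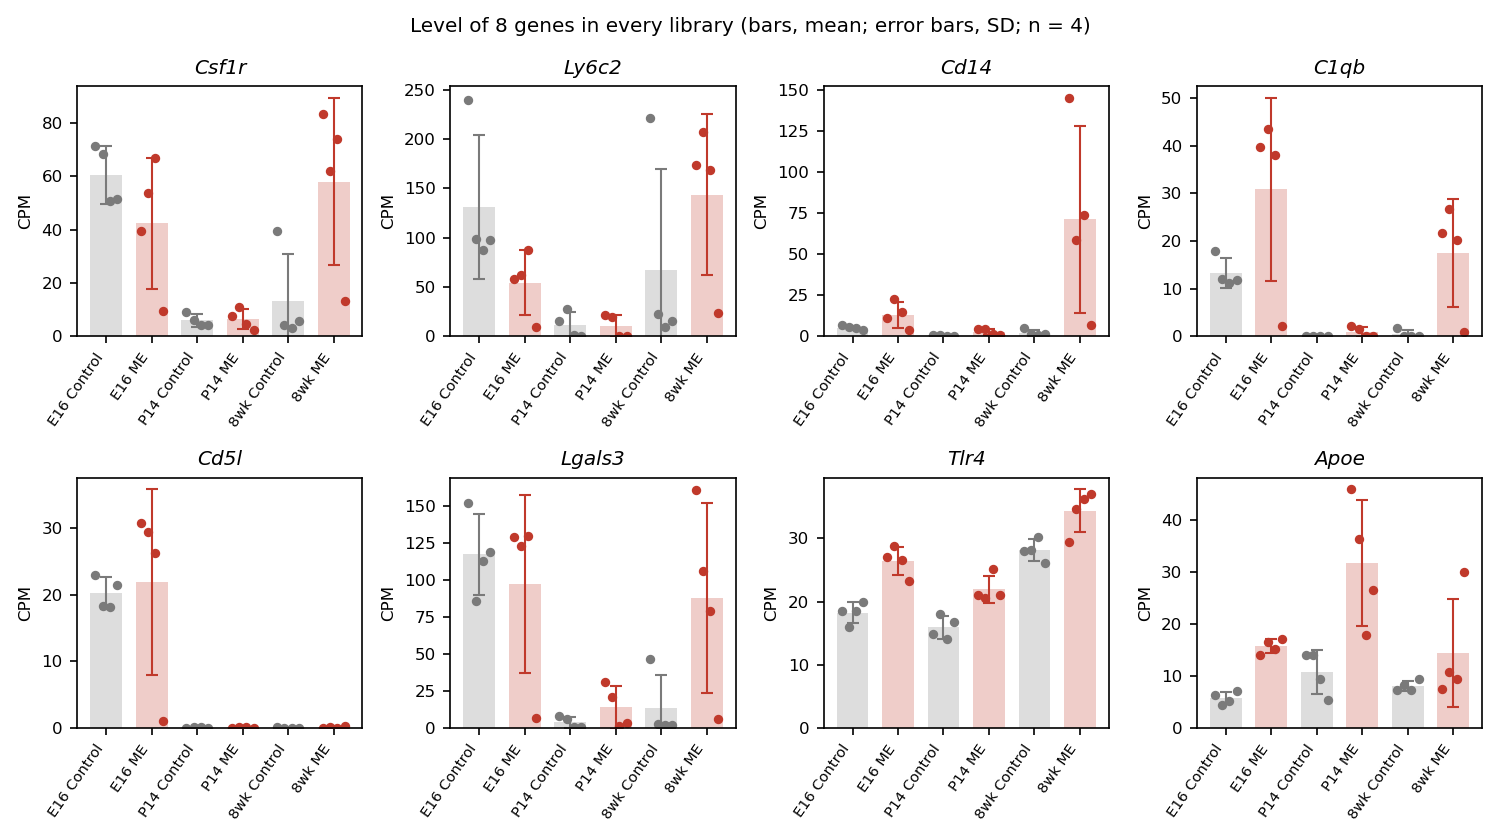
CPM of 8 genes in every library (points, replicates 1 to 4 from left to right; bars, group mean; error bars, SD; n = 4; red marks ME). Cd5l is counted almost only at E16, Cd14 is highest in 8wk ME, and Tlr4 and Apoe do not drop in the fourth ME libraries of E16 and 8wk as Csf1r, Ly6c2, C1qb and Lgals3 do.

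Whether the ME effect itself differed between ages was tested as a difference of differences. With all libraries and edgeR, 0 of 30 members were called in any of the 3 comparisons, but with the replicate number as a block 3 had a larger effect at 8wk than at E16. Same-numbered ME libraries of 8wk and E16 deviated together, with correlations of 0.121 to 0.478, and same-numbered 8wk and E16 controls did so less evenly (0.039 to 0.27). Pairs of other numbers ranged from -0.387 to 0.255 in ME and from -0.21 to 0.192 in controls. The unadjusted p was under 0.05 for 1 member (P14 against E16), 7 (8wk against E16) and 3 (8wk against P14), and each was higher at the later age. DESeq2 called 1, 4 and 1, and limma-voom 0, 1 and 0. The first and last of the DESeq2 calls were C1qb, larger at P14 than at E16 and smaller at 8wk than at P14, where the P14 controls held 0 counts. Of all genes, 0.0158%, 0.46% and 0.195% were called higher and 0.00528%, 0.391% and 0.106% lower. The member nearest the threshold was Cx3cr1, whose 8wk effect exceeded its E16 effect by 2.74 ± 0.68 (adjusted p = 0.0532). Cx3cr1 was called by DESeq2 (2.76 ± 0.65, adjusted p = 0.00261) and limma-voom (2.77 ± 0.63, adjusted p = 0.0464). Cd14, Axl and Cd68 were the other members DESeq2 called between 8wk and E16.

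Without the 3 libraries, 15 members had a larger ME effect at 8wk than at E16 (background 3.89%) and 9 a larger one at 8wk than at P14 (2.93%), with 0 smaller (3.18% and 2.3%). Between P14 and E16, 0 were called in either direction (0.0363% and 0.0156%). Csf1r differed between 8wk and E16 by 4.28 ± 0.59, adjusted p = 0.000305, Cd14 by 4.92 ± 0.90, adjusted p = 0.00318, Clec7a by 4.99 ± 0.83, adjusted p = 0.00136 and Cd68 by 1.68 ± 0.29, adjusted p = 0.00162. Tlr4 (-0.34 ± 0.17, adjusted p = 0.279) and Apoe (-1.26 ± 0.44, adjusted p = 0.0904) had estimates of the other sign and did not pass. These effects rest on the same 3 control groups, and the 3 libraries were chosen after their levels of these genes were seen. The size without them is therefore no independent check.

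At P14 the libraries split by replicate number in both genotypes. Replicates 1 and 2 were both above replicates 3 and 4 for 23 of 30 members in ME and 17 in controls, 15 of them in both. The ratio of the mean of replicates 1 and 2 to that of 3 and 4 was 87.8 in ME and 34.7 in controls for Ly6c2, 14.1 and 6.37 for F13a1, and 14.1 and 14.8 for Lgals3. Tlr4, by contrast, had ratios of 0.904 and 1.06. The neutrophil sums given above split the same way. Xist, made by female cells, was 45.7 CPM or above in replicates 1 and 2 of both genotypes, at 38.1 in control 3 and at or below 1.91 in ME 3, ME 4 and control 4. The part of sex was not tested.

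Within replicates 1 and 2 and within 3 and 4, the ME to control ratio was close for several members. For Apoe it was 2.94 in replicates 1 and 2 and 3.01 in replicates 3 and 4, for Lgals3 3.82 and 4, for Slc40a1 1.9 and 1.98, for Ms4a7 3.14 and 2.75, and for Cd14 6.14 and 8.31. For Ly6c2 it was 0.944 and 0.373, and for Csf1r 1.21 and 0.794. Same-numbered P14 libraries deviated together (correlations of 0.137 to 0.232), but pairs of other numbers ranged from -0.265 to 0.242. A pairing by number therefore cannot be told apart from the split of replicates 1 and 2 from 3 and 4. A fit of the 8 P14 libraries with the replicate as a block was added. In it 9 of the 21 members that passed its filter rose in ME (background 15.3%). Apoe, Cd14 and Tlr4 were called as before, and Adgre1 (1.75 ± 0.38, adjusted p = 0.01), Lgals3 (1.89 ± 0.43, 0.0243), Ms4a7 (1.53 ± 0.43, 0.0293), Slc40a1 (0.99 ± 0.17, 0.00351), Cd68 (0.62 ± 0.19, 0.0416) and Fcgr1 (0.79 ± 0.25, 0.0447) were added. The same 8 libraries without the block gave 3 calls. C1qb, C1qc and Marco were too low in P14 alone to enter.

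Setting 8wk ME against E16 ME, a comparison added after the data were seen, gave 2 members higher at 8wk (Cd14 and Tlr4, background 7.53%) and 7 lower (Axl, C1qa, Cd5l, Fcgr1, Mertk, Ms4a7 and Timd4, 7.71%). Cd14 was higher at 8wk (log2 fold change 2.46 ± 0.80 SE, adjusted p = 0.0415), and Csf1r (0.46 ± 0.72, adjusted p = 0.75) and Cd68 (-0.04 ± 0.30, adjusted p = 0.958) differed by less than their error. Of these 9 calls, those of Cd5l and Fcgr1 were kept in each alternative run, and the other 7 were lost in 1 or more. C1qa was lost with DESeq2 (adjusted p = 0.132) and without any 1 of 7 of the 8 libraries (0.0675 to 0.107), and Ms4a7 without any 1 of 7 (0.0774 to 0.114). Cd14 was lost with limma-voom (adjusted p = 0.0529) and without any 1 of 6 libraries (0.0631 to 0.138), and Tlr4 without the 3 libraries (0.158), with library size only (0.0662) and without any 1 of 5 libraries (0.0524 to 0.0819). Without a filter, C1qa, Cd14, Ms4a7, Tlr4 and Mertk were lost, with only the groups compared the same 5 and Axl, and with limma-voom Mertk (adjusted p = 0.235) and Timd4 (0.0828) as well as Cd14. With those 3 libraries left out, 1 was higher (Cd14, 7.27%) and 10 lower (6.5%), C1qc, Slc40a1 and Spic being added. Cd5l, Mertk and Timd4 were near 0 in all marrow libraries and passed the filter through E16, where they are high, so their calls describe these genes and support nothing further. Fitting only the groups compared left 0 higher and 2 lower. Age and tissue of origin cannot be told apart in this comparison.

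Per kilobase of exon, the order of levels also differed between groups. In E16 controls the highest mean CPM per kilobase were Lgals3 (63.2), Ly6c2 (47.7), Cd68 (28.7) and Fcgr3 (25.2). In E16 ME they were Lgals3 (52.4), C1qb (28.4), Cd68 (25.2) and C1qa (21.2), and in 8wk ME Ly6c2 (52.3), Lgals3 (47.4), Cd14 (41) and Cd68 (24.6). P14 ME was led by Apoe (14.9) and Cd68 (13.3), and P14 controls by Cd68 (8.39) and Apoe (5.01). No order was tested.

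Genes that work with the members were read from 4 lists. Over all genes, 13.3%, 12.7% and 14.2% were called higher and 8.47%, 9.35% and 14.3% lower in ME at E16, P14 and 8wk. Without the 3 libraries the shares were 11.5%, 14.3% and 17.7% higher and 7.54%, 11.4% and 17.2% lower. These are the backgrounds of the counts that follow. Of 10 myeloid transcription factors, 3 rose in ME at E16 (Runx1 and Cebpa among them), 4 at P14 and 6 at 8wk (Spi1, Zeb2, Cebpa, Irf8 and Cebpb among them), and 0 fell, with median log2 fold changes of 0.48, 0.92 and 0.98. Cebpa, which drives the granulocyte and monocyte fate, was 6 ± 3.23 CPM (SD, n = 4) in E16 ME against 1.9 ± 0.734, 6.71 ± 4.49 against 1.24 ± 0.553 at P14, and 9.93 ± 3.79 against 1.34 ± 0.521 at 8wk, and was called at each age. Zeb2 rose at P14 (0.84 ± 0.20, adjusted p = 0.00436) and 8wk (0.91 ± 0.20, adjusted p = 0.00202). Spi1, which encodes PU.1, was 120 ± 27.7 against 82.9 ± 10.1 at 8wk (0.53 ± 0.17, adjusted p = 0.024). Spi1 stood at 132 ± 12.2 against 145 ± 30.2 at E16 and 103 ± 15.4 against 91.3 ± 19.9 at P14, where it did not pass (adjusted p = 0.627 and 0.537). Cebpb rose at P14 and 8wk, where it was 5.51 ± 8.49 in ME, a spread larger than its mean, and 0.0827 ± 0.0616 in controls. Leaving the 3 libraries out, 3, 6 and 8 of the 10 rose.

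Among 8 ligands of member receptors (7 tested), 3 rose in ME at 8wk: Csf1, the CSF1R ligand (0.97 ± 0.25, adjusted p = 0.00616), and Ccl2 (5.78 ± 1.08, adjusted p = 0.000633) and Ccl7 (5.39 ± 1.43, adjusted p = 0.00945), which attract CCR2-bearing monocytes. Ccl2 was 8.87 ± 7.21 CPM in 8wk ME and 0.153 ± 0.113 in controls, with no overlap. Pros1, a ligand of Mertk, fell in ME at E16 (-0.90 ± 0.26, adjusted p = 0.0176), and 0 of the 7 were called at P14. Of 13 signal partners, 1 rose (Ly96) and 2 fell (Cd9 and Myd88) at E16, 0 rose and 3 fell (Syk, Myd88 and Plcg2) at P14, and 6 rose at 8wk (Card9, Fgr, Tyrobp, Lyn and Fcer1g among them), when Cd9 fell. Fcer1g, the shared Fc receptor chain, was 205 ± 17.4 against 109 ± 15.3 at 8wk, 180 ± 14.6 against 181 ± 24.1 at E16 and 112 ± 16.9 against 110 ± 21.3 at P14. Fcer1g and Lyn were also called in the difference of the ME effect between 8wk and both younger ages. Myd88, the adaptor of TLR4, fell in ME at E16 (-0.38 ± 0.10, adjusted p = 0.00658) and P14 (-0.45 ± 0.10, adjusted p = 0.0017), the ages at which Tlr4 rose.

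Of 19 further monocyte and macrophage genes, 1 rose and 2 fell in ME at E16, 2 rose and 2 fell at P14, and 6 rose and 1 fell at 8wk. Their median log2 fold changes were -0.11, 0.60 and 1.39. Tlr2 rose at 8wk (67.3 ± 26.6 against 24.4 ± 5.18 CPM, 1.46 ± 0.21, adjusted p = 3.02e-05), as did Ctss, a lysosomal protease (1.69 ± 0.31, adjusted p = 0.00043). Emilin2 fell at each age. Cd163, a haemoglobin scavenger receptor, ran against the members between ages: it was 0.209 ± 0.13 CPM in E16 controls, 7.6 ± 1.1 in P14 controls and 11 ± 1.45 in 8wk controls, and was called higher in ME at E16 (1.66 ± 0.33, adjusted p = 0.00107). Of the 19, 3, 5 and 16 rose without the 3 libraries.

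The marker lists of other cell types gave these counts between ME and control at E16, P14 and 8wk. Dendritic genes were higher in 0, 1 and 3 of 9, and neutrophil genes in 0 of 10 at each age, with Ltf lower at E16. B-lineage genes were higher in 1, 7 and 1 of 8, and their sums in P14 ME were 345, 166, 46.6 and 38.5 CPM against 40.2 to 44.2 in P14 controls. Endothelial genes were higher in 1, 1 and 3 of 7, T and NK genes in 1 of 5 at each age (Klrb1c), and hepatocyte (1 tested) and stromal (3 tested) genes in 0. Erythroid genes were lower in 0, 0 and 1 of 7, megakaryocyte genes in 4, 0 and 0 of 6 with 1 higher at P14, and mast, basophil and eosinophil genes in 1 of 7 at each age (Mcpt8). Progenitor genes were higher in 3, 3 and 4 of 8 and lower in 0, 1 and 1. Without the 3 libraries, 4 of 7 erythroid genes were higher at 8wk and 0 lower, with a median log2 fold change of 1.77, and 7 of 10 dendritic genes were higher and 1 lower, with a median of 1.82, beside the 9 of 10 neutrophil genes and 23 of 30 members. The part of these cell types in the members' values was not tested.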

How the data were processed

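Bulk RNA-seq was read from 1 table of raw counts per gene that the authors deposited, covering 24 libraries. Per the submitters' processing notes, STAR 2.7.9a, featureCounts 2.0.3 of Subread and GRCm38 were used. The annotation release and strand setting are not given in the sources used here, so antisense reads cannot be told apart. Of 55774 lines, 168 identifiers were repeated with the same counts, and 1 line of each was used. Library totals were 33.9 to 69.3 M. A median of 63.6% (59.3% to 67.8%) of counts from 1 to 20 were even, and how reads and pairs were counted is not stated.

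Tests used edgeR 4.0.16 (robust quasi-likelihood, TMM, filterByExpr with minimum count 10, all 24 libraries in 1 fit) in R 4.3.3, with Benjamini-Hochberg adjustment over 18931 genes at 0.05. CPM values use TMM-scaled library sizes. Alternatives were DESeq2 1.42.0, limma-voom 3.58.1, other scalings, no filter, a replicate block, only the groups compared and leaving out each library. Floors are 3 counts over a group, and intervals of count ratios are exact Clopper-Pearson at 95%. The fitting was tested on simulated data. Positions and exon lengths are from GENCODE M21 (GRCm38). The members and lists were chosen with earlier results of these data known.

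Values per library are given for members called in at least 1 of 9 planned comparisons, except Mrc1, and for C1qa, C1qb and C1qc. Ly6c2, which was not called, is also given per library. Mrc1 and groups near 0 are given by their range. From each other list, named genes have the smallest adjusted p in a comparison of ME with control. Some genes of these lists are counted but not reported here by name. Same-numbered P14 libraries deviated together (correlations of 0.137 to 0.232 in all 4 pairs), as did 8wk and E16 ME libraries (0.121 to 0.478). Pairs of other numbers reached 0.242 at P14 and 0.255 between 8wk and E16 ME. The labels name no shared animal or day.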

Additional observations from a re-analysis of the deposited data

Results flagged for a closer look

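In groups of 4 libraries, the highest or lowest library was marked where its gap to the nearest other library was so large a share of the group's range, both on the log2(CPM + 0.5) scale, that it passed Dixon's 95% critical value. On the CPM scale other libraries can pass. Of 141 gene and group combinations, 31 were marked. Genes of 1 library vary together and are not independent trials, so this count is not set against chance. E16 ME replicate 4, 8wk ME replicate 4 and 8wk control replicate 1, already noticed for these genes, held 14, 6 and 8 of the marks. The values given below are CPM.

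E16 ME replicate 4 was marked low 14 times: C1qa 1.1, C1qb 2.19, C1qc 1.46, Clec7a 1.68, Cd5l 1.05, Fcgr3 5.35, Mertk 0, Spic 0.0448, Slc40a1 5.4, Vcam1 1.77, Maf 0.179, Adgre1 3.11, Cd68 15.4 and Lgals3 6.58. The other 3 libraries of that group lay between 123 and 130 for Lgals3, and between 66.5 and 81.1 for Slc40a1. 8wk ME replicate 4 was marked low 6 times: Csf1r 13.1, Ly6c2 23.6, C1qb 0.877, C1qc 0.313, Msr1 0.167 and Fcgr3 9.8.

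8wk control replicate 1 was marked high 8 times: C1qb 1.62, Clec7a 7.28, Msr1 1.99, Mrc1 1.28, Vcam1 14.2, Adgre1 13, Ms4a7 2.87 and Lgals3 46.6, the other 8wk controls being at 1.8 to 2.28 for Lgals3. E16 control replicate 1 was marked high for Ly6c2 (240) and C1qb (18), and P14 ME replicate 3 for Tlr4 (25.1, against 20.6 to 21.1).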

How the results depend on the processing

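No called member changed direction in any alternative run. Of 73 calls over 10 comparisons, DESeq2 kept 70, limma-voom 45, no filter 51, library size only 71, DESeq2 size factors in edgeR 72 and the fit without the 3 libraries 71. Fitting only the groups compared kept 52 of the 67 calls it covers. The replicate block kept 73 of 73 and gave 3 members with a larger ME effect at 8wk than at E16, in place of 0. The cause of these changes was not tested.

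Members higher in ME at P14 (6) numbered 2 with limma-voom or no filter and 3 with only the groups compared, and 2 to 7 when 1 library was left out. Members lower at E16 (0) numbered 1 with only the groups compared. Members higher at 8wk (10) numbered 5 with only the groups compared, 7 to 20 with 1 library left out and 23 without the 3 libraries. Larger effects at 8wk than E16 (0) numbered 4 with DESeq2, 1 with limma-voom, 0 to 9 with 1 library left out (9 without 8wk control 1, 4 without 8wk ME 4) and 15 without the 3. Larger effects at 8wk than P14 (0) numbered 0 to 2 with 1 library left out and 9 without the 3, and DESeq2 called 1 smaller. DESeq2 called 1 larger at P14 than E16.

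From E16 to P14 controls, members higher (0) numbered 0 to 1 with 1 library left out and 1 without the 3. From E16 to 8wk controls, members lower (17) numbered 14 to 26 with 1 library left out and 27 without the 3. From P14 to 8wk controls, members higher (2) numbered 6 with DESeq2, 1 with limma-voom, no filter, only the groups compared or without the 3, and 1 to 3 with 1 library left out, and members lower (0) numbered 3 without the 3. From E16 to 8wk ME, members higher (2) numbered 1 with library size only, limma-voom or without the 3, 0 with no filter or only the groups compared, and 0 to 2 with 1 library left out; members lower (7) numbered 4 with no filter and 2 with only the groups compared.

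Members under 1 CPM, such as Timd4, Maf and Vsig4, rest on few counts in marrow, where differences were often not detectable at this depth. Same-numbered libraries deviated together at P14, where pairs of other numbers reached 0.242, but not between ME and control at E16 (-0.043 to 0.001) or 8wk (-0.088 to 0.118).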

Other observations

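A few members kept or raised their level in the libraries where the others were low. In E16 ME replicate 4, Ccr2 (14.6 CPM), Axl (67.8) and Apoe (17.2) were the highest of their group. In 8wk ME replicate 4, Apoe (30), Tlr4 (37.1) and Cd5l (0.23) were. In 8wk control replicate 1 the members that were not highest were Tlr4 (28), Timd4 (0.0139) and Apoe (7.24). These libraries were noticed for their levels of these genes, so the values are a description.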
